A study of Homo sapiens with 15 samples.

Results

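The genes described here encode fibronectin (FN1), fibrillin-1 and fibrillin-2 (FBN1, FBN2), the matricellular proteins tenascin-C (TNC), thrombospondin-1 and thrombospondin-2 (THBS1, THBS2), SPARC and periostin (POSTN), and the matrix cross-linking enzymes lysyl oxidase (LOX) and lysyl oxidase-like 2 (LOXL2). They were chosen by gene symbol, and all 10 were found among the 37787 genes of the deposited table. These members and the lists of related genes below were chosen with earlier results of these data known. The shares of them that were called therefore stand beside the shares of all genes only as description. FBN2 had between 0 and 3 counts in every library and did not pass the filter on low counts. The other 9 members were tested, among 13868 genes in all.

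RNA was sequenced from HGrC1 cells, an immortalized human granulosa cell line that is not luteinized and carries normal alleles of FOXL2. The cells were transfected transiently for 4 h and kept for a further 24 h in medium without serum, at passage 14. There were 5 conditions with 3 libraries each, labelled A, B and C, and 15 libraries in all. The Vectors libraries came from cells given empty plasmids. FOXL2WT cells received wild-type FOXL2 together with SMAD3, and FOXL2C134W cells received FOXL2 with the C134W substitution, the recurrent mutation of adult granulosa cell tumors, together with SMAD3. FOXL2WT + FOXO1 and FOXL2C134W + FOXO1 cells received in addition FOXO1-3A, a form of FOXO1 that stays active in the nucleus. SMAD3, the transcription factor that carries TGF-beta signals, was thus added in every condition except Vectors, so the effect of FOXL2 against Vectors cannot be told apart from that of SMAD3. Every library came from 1 cell line, and each holds RNA from transfected and untransfected cells together.

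Fibronectin is secreted as a dimer and assembled by integrins into fibrils around cells, and fibrillins form the microfibrils that hold elastin and the latent forms of TGF-beta. Matricellular proteins bind to this scaffold and to cell surface receptors and change how cells adhere to it, while lysyl oxidases fix collagen and elastin fibers by oxidizing their lysines. Many of these genes are known targets of TGF-beta and SMAD3 in mesenchymal cells, and granulosa cells lay down matrix of this kind as the ovarian follicle grows.

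Library totals ran from 14962245 to 25339094 counts. The level of a gene is its CPM, the count relative to the TMM-scaled library size, always in the order of libraries A, B and C, and a fold change is a log2 difference fitted by edgeR with its standard error (SE). The adjusted p is Benjamini-Hochberg over all 13868 genes with a threshold of 0.05. The labels do not say whether the 3 libraries of a condition came from separate cultures, so the p-values measure the spread between these libraries, which may be technical. The transfected genes followed their labels. The mean FOXL2 level was 8.73 CPM in Vectors, 560.6 in FOXL2WT, 147.0 in FOXL2C134W, 383.7 in FOXL2WT + FOXO1 and 152.4 in FOXL2C134W + FOXO1. SMAD3 averaged 249.3, 2768, 843.1, 969.3 and 391.7 CPM in the same order. Since FOXL2 and SMAD3 RNA were lower in FOXL2C134W than in FOXL2WT (log2 fold changes of -1.93 and -1.71), the form of FOXL2 cannot be told apart from the level of the transfected RNAs in any comparison between them. The paper describes the protein of both FOXL2 forms and of FOXO1 as balanced, from an immunoblot of parallel cultures. SMAD3 is not among the proteins it names there. FSHR, a receptor that defines granulosa cells in the follicle, was at 0 in every library, and AMHR2, CYP19A1 and INHA had at most 7 counts. The granulosa list held 7 genes other than FOXL2, whose summed level lay between 1890 and 2186 CPM. KRT18 and NR2F2 made most of that sum. Whether these 2 genes mark granulosa cells was not tested, so the sum is not a measure of granulosa identity. That sum was 1890 to 1900 CPM in Vectors, 1938 to 2039 in FOXL2WT and 2061 to 2122 in FOXL2C134W. NR2F2 was higher in FOXL2C134W than in Vectors (0.32, edgeR adjusted p = 0.000130) and FOXL2WT (0.24, adjusted p = 0.00222), and KRT18 than in Vectors (0.12, adjusted p = 0.0264, called in 1 of 6 fits with a library left out). The part of the genes of this list in the results was not tested.

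FN1, TNC, THBS1 and SPARC were the 4 members that differed between the forms of FOXL2. Their promoters are shown so that the letters before the starts of genes that moved in unlike directions can be compared. Each is the 250 bases before the RefSeq start, 5′ to 3′ on the gene's strand, from RefSeq and GRCh38.p14. Capitals mark the letters found by the search for CAGAC (a SMAD half-site), TATAA (the core of a TATA box), TGANTCA (an AP-1 site), TGACGTCA (a cAMP response element) and GTAAACA (the forkhead core), each read on both strands. The FN1 window is chr2:215436069-215436318 on the minus strand, the TNC window chr9:115118158-115118407 on the minus strand, the THBS1 window chr15:39580829-39581078 on the plus strand, and the SPARC window chr5:151686916-151687165 on the minus strand.
FN1: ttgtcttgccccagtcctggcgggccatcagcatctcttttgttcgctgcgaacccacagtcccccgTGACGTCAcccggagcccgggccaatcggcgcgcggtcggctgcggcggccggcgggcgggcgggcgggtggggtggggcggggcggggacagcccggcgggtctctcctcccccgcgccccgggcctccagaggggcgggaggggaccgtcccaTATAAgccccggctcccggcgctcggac
TNC: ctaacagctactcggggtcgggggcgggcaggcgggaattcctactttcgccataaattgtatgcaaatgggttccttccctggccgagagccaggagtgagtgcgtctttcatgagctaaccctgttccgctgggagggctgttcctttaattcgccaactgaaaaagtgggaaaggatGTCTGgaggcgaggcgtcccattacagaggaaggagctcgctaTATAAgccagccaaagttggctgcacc
THBS1: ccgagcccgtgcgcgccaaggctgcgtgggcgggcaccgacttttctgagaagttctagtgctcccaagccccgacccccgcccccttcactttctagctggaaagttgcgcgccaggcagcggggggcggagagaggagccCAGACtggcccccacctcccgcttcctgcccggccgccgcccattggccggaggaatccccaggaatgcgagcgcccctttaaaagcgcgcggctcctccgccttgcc
SPARC: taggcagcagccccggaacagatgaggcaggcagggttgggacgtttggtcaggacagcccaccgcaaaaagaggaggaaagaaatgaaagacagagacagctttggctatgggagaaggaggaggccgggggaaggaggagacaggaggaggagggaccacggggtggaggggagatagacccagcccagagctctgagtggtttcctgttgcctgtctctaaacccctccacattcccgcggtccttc
In FN1 the TATAA lay 28 to 24 bases before the start and the TGACGTCA 183 to 176 bases before it. TNC had a TATAA at 27 to 23 bases and a CAGAC, on the opposite strand, at 70 to 66 bases. THBS1 had a CAGAC at 108 to 104 bases, and none of the 5 motifs was in the SPARC window. Over the 9 members with a promoter in the table that was used, CAGAC was in 5, against 38.0% of all 35116 promoters, and TATAA was in 4, against 18.9%. TGACGTCA was in 1 of 9 against 1.65% of promoters, and TGANTCA in 1 of 9, POSTN, against 6.57%. GTAAACA was in 0 of 9, against 2.98%. These are matches of letters in 1 window and not measured binding sites.

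In TPM, which corrects for transcript length, SPARC, which binds collagen and calcium at the cell surface, stood highest of the members in all 15 libraries. Its summed transcript level was 2614 to 3242 TPM, although 60.4% of that TPM lay in short transcripts of under a kilobase. THBS1 followed at 616.5 to 871.2 TPM and FN1 at 313.8 to 485.9 TPM. LOX at 172.4 to 214.4 TPM and LOXL2 at 140.5 to 177.4 TPM overlapped, as did TNC at 52.92 to 72.68 TPM and FBN1 at 39.25 to 56.94 TPM. Transcripts of under a kilobase took 45.6% of the TPM of THBS1, 34.2% of LOXL2 and 19.2% of TNC. They took 12.7% of FN1, 6.31% of FBN1 and 0.17% of LOX. The lowest 3 were near the limit of detection. THBS2 ran from 0.27 to 1.29 TPM on 20 to 67 counts per library, and POSTN from 0.13 to 0.90 TPM on 5 to 19 counts. These 2 could not be ordered, since their ranges overlapped. FBN2, the fibrillin of developing tissues, was at 0 counts in 6 of the 15 libraries, where a count of 0 allows up to 3 counts. Such limits cover counting error only.

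**Figure D1:**
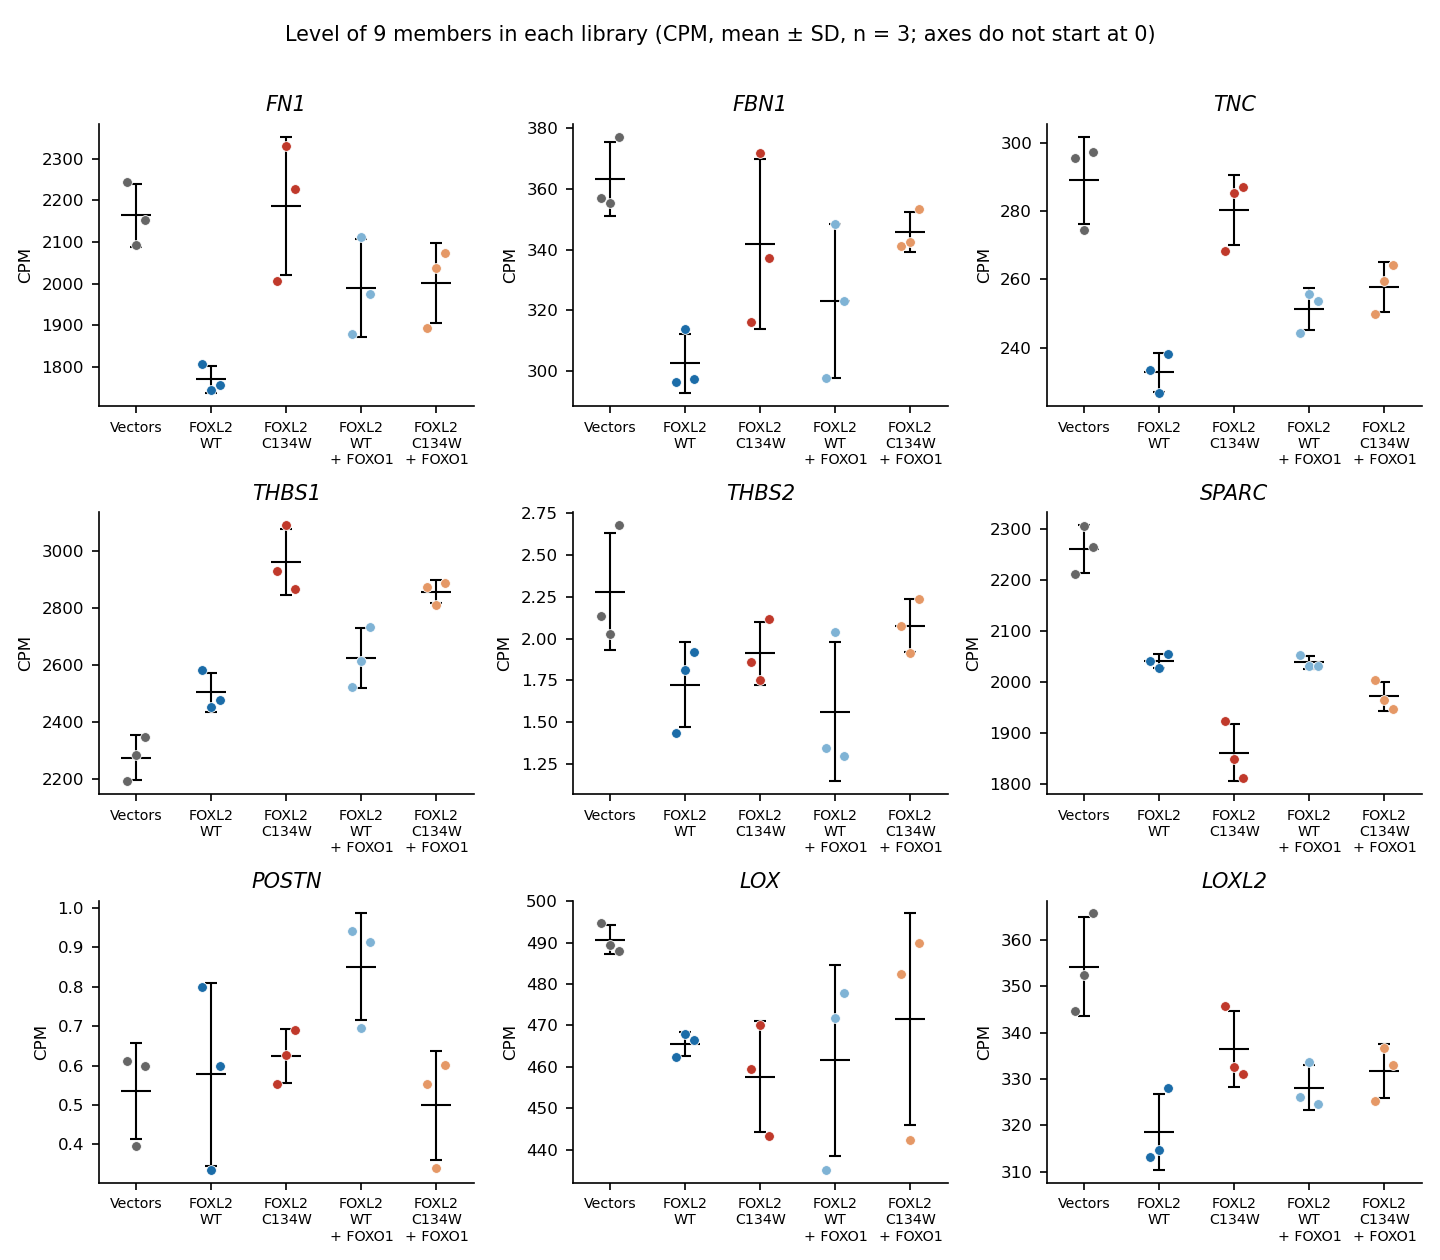
Level of each of the 9 members that passed the filter (y axis, CPM, not starting at 0) in the 15 libraries of the 5 conditions (x axis), with points for libraries and bars for the mean ± SD (n = 3). FN1 and TNC are lowest in FOXL2WT, THBS1 is highest and SPARC lowest in FOXL2C134W, and THBS2 and POSTN lie under 3 CPM throughout.

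The first comparison asks what wild-type FOXL2 with SMAD3 does to these genes against empty plasmids. Of the 9 tested members, 5 fell (FN1, FBN1, TNC, SPARC, LOXL2) and 1 rose (THBS1). Over all 13868 genes 6.07% changed in this comparison, 3.61% lower and 2.46% higher. The median log2 fold change of the 9 members was -0.15, beside 0.0025 over all genes. All 6 changes were under 1.5-fold. In bulk RNA of this kind, fewer expressing cells and less RNA per cell cannot be told apart.

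FN1 (ENSG00000115414, chr2:215360440-215436073, minus strand of GRCh38) had 2243, 2094 and 2154 CPM in Vectors and 1808, 1746 and 1758 CPM in FOXL2WT. Every FOXL2WT library was below every Vectors library, and FN1 fell by 0.29 on the log2 scale (SE 0.05, edgeR adjusted p = 0.00257). TNC (ENSG00000041982, chr9:115019575-115118207, minus strand), a hexameric glycoprotein of remodelling tissue that loosens the adhesion of cells to fibronectin, had 295.4, 274.4 and 297.3 CPM in Vectors and 233.6, 226.8 and 238.2 CPM in FOXL2WT. The groups did not overlap, and TNC showed the largest fall among the called members, by 0.31 on the log2 scale (SE 0.04, edgeR adjusted p = 0.000145). FBN1 (ENSG00000166147, chr15:48408313-48645721, minus strand), the main fibrillin of adult microfibrils, went from 357.1, 355.3 and 377.1 CPM to 296.5, 313.9 and 297.5 CPM. These values were also separate, and FBN1 fell by 0.26 (SE 0.06, edgeR adjusted p = 0.00864). In the fit of DESeq2 with transcript length offsets, the call was lost for TNC (-0.21, adjusted p = 0.262) and for FBN1 (-0.29, adjusted p = 0.156), and FN1 kept it.

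SPARC (ENSG00000113140, chr5:151661096-151686975, minus strand) had 2213, 2307 and 2265 CPM in Vectors and 2041, 2027 and 2055 CPM in FOXL2WT. The groups did not overlap, and SPARC fell by 0.15 (SE 0.03, edgeR adjusted p = 0.00713). LOXL2, which oxidizes lysines of collagen IV, had 344.6, 352.4 and 365.7 CPM in Vectors and 313.2, 314.6 and 328.1 CPM in FOXL2WT, and fell by 0.15 (SE 0.04, edgeR adjusted p = 0.0156). Its call was lost without Vectors library C (-0.13, adjusted p = 0.0827), without FOXL2WT library A (-0.14, adjusted p = 0.0814) and without FOXL2WT library B (-0.14, adjusted p = 0.0749).

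THBS1 (ENSG00000137801, chr15:39581079-39599466, plus strand), which binds integrins and CD47 and can release active TGF-beta from its latent form, was the member that rose. It had 2190, 2284 and 2347 CPM in Vectors and 2581, 2453 and 2476 CPM in FOXL2WT, without overlap, a log2 fold change of 0.14 (SE 0.04, edgeR adjusted p = 0.0401). The call was kept without Vectors library C (0.16) and lost without any of the other 5 libraries. Leaving out Vectors library A gave 0.11 (adjusted p = 0.217), Vectors library B 0.14 (adjusted p = 0.0859), FOXL2WT library A 0.12 (adjusted p = 0.171), FOXL2WT library B 0.15 (adjusted p = 0.0808) and FOXL2WT library C 0.15 (adjusted p = 0.0745). DESeq2 with transcript length offsets gave 0.10 (adjusted p = 0.440).

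LOX (ENSG00000113083, chr5:122063195-122078413, minus strand), which starts the cross-linking of collagen and elastin, had 494.7, 489.5 and 487.9 CPM in Vectors and 462.3, 467.9 and 466.4 CPM in FOXL2WT. The libraries did not overlap, but the difference of -0.08 (95% interval -0.17 to 0.01) missed the threshold (edgeR adjusted p = 0.330). THBS2 (ENSG00000186340, chr6:169215780-169254050, minus strand), a relative of THBS1 that like it restrains vessel growth, had 2.14, 2.03 and 2.68 CPM in Vectors and 1.44, 1.81 and 1.92 CPM in FOXL2WT. On 27 to 67 counts per library its difference of -0.40 had an interval of -0.85 to 0.04. POSTN (ENSG00000133110, chr13:37562583-37598844, minus strand), which links collagen and TNC, had 14, 8 and 15 counts in the Vectors libraries and 15, 5 and 14 in FOXL2WT, and its interval ran from -0.64 to 0.90, which leaves moderate differences in either direction possible.

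**Figure D2:**
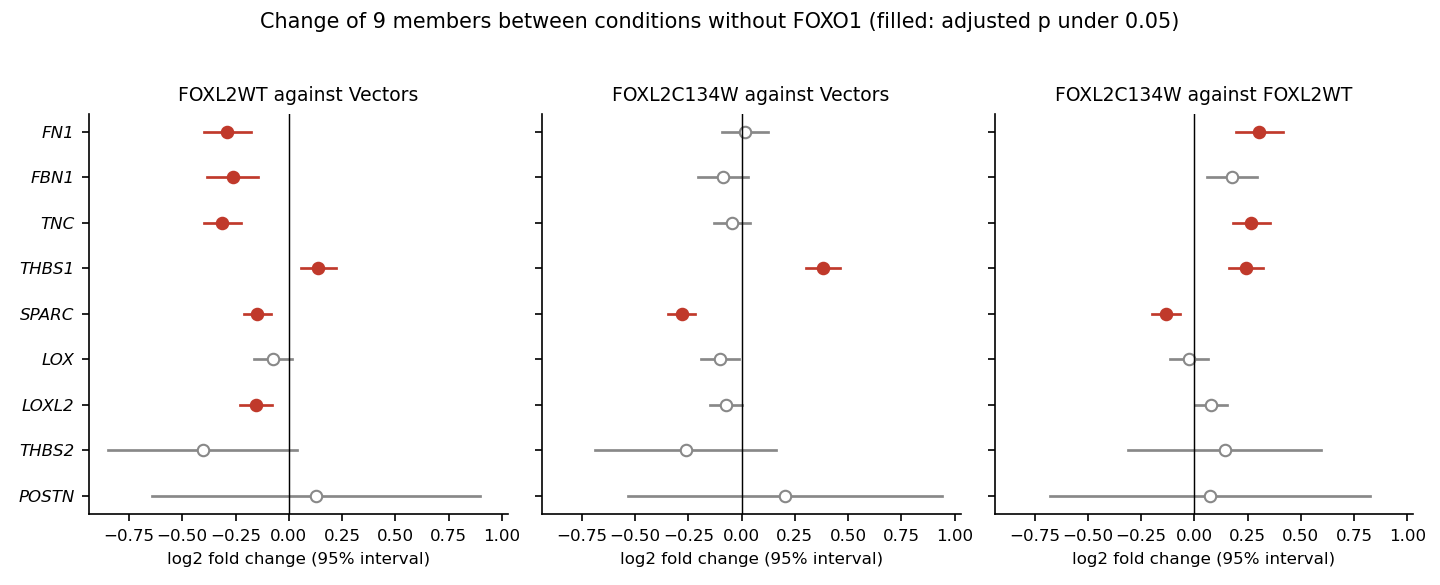
Log2 fold change of the 9 tested members (x axis, with 95% interval) in FOXL2WT against Vectors, FOXL2C134W against Vectors and FOXL2C134W against FOXL2WT, with filled points for an adjusted p under 0.05. FN1 and TNC are below 0 in the first panel, near 0 in the second and above 0 in the third, while THBS1 and SPARC move away from 0 in opposite directions in the second.

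With FOXL2C134W and SMAD3 against Vectors, 2 of the 9 members were called. THBS1 rose and SPARC fell, where 14.7% of all genes changed (7.48% higher and 7.24% lower). THBS1 had 2929, 3091 and 2866 CPM in FOXL2C134W, above all 3 Vectors libraries, a log2 fold change of 0.38 (SE 0.04, edgeR adjusted p = 4.0e-06). SPARC had 1923, 1848 and 1812 CPM, below all 3 Vectors libraries, and fell by 0.28 (SE 0.03, edgeR adjusted p = 9.0e-06). Both calls held in every alternative fit that was run.

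FN1 in FOXL2C134W had 2006, 2330 and 2226 CPM and overlapped Vectors, with a difference of 0.02 (95% interval -0.09 to 0.12). TNC had 268.4, 285.4 and 287.0 CPM and also overlapped, with a difference of -0.05 (interval -0.13 to 0.04). FBN1 differed by -0.09 (interval -0.21 to 0.03), LOXL2 by -0.07 (interval -0.15 to 0.0002) and LOX by -0.10 (interval -0.19 to -0.01, edgeR adjusted p = 0.126). The intervals leave room for small changes in each of them. THBS2 differed by -0.26 (interval -0.69 to 0.16) and POSTN by 0.20 (interval -0.54 to 0.94). When a trend with gene length was removed within each library, 3 further members were called lower than Vectors, FBN1 (-0.21, edgeR adjusted p = 0.000326), TNC (-0.11, adjusted p = 0.0213) and LOX (-0.12, adjusted p = 0.0255). FN1 then lay at -0.07 (adjusted p = 0.10).

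The comparison of the mutant with the wild-type protein is the one the study was built on. Of the 9 members, FN1, TNC and THBS1 rose and SPARC fell in FOXL2C134W against FOXL2WT. Over all genes 11.2% changed, 7.13% higher and 4.12% lower, and the median log2 fold change was 0.14 over the 9 members beside -0.01 over all genes. This comparison and that of FOXL2WT with Vectors share the FOXL2WT libraries, so the opposite signs of FN1 and TNC in them are not separate observations.

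FN1 had 1808, 1746 and 1758 CPM in FOXL2WT and 2006, 2330 and 2226 CPM in FOXL2C134W. The groups did not overlap, and the log2 fold change was 0.30 (SE 0.05, edgeR adjusted p = 0.00101). TNC went from at most 238.2 CPM in FOXL2WT to at least 268.4 CPM in FOXL2C134W, a log2 fold change of 0.27 (SE 0.04, edgeR adjusted p = 0.00045). THBS1 went from at most 2581 CPM to at least 2866 CPM, a log2 fold change of 0.24 (SE 0.04, edgeR adjusted p = 0.000543). The fold changes were 1.23, 1.20 and 1.18 on the linear scale. SPARC moved the other way, from at least 2027 CPM in FOXL2WT to at most 1923 CPM in FOXL2C134W, and fell by 0.13 (SE 0.03, edgeR adjusted p = 0.00880). Without FOXL2C134W library B its difference was -0.12 (adjusted p = 0.0591) and without FOXL2C134W library C -0.11 (adjusted p = 0.0539), so the call needed both.

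FBN1 lay just outside the threshold in this comparison. Its 3 FOXL2C134W libraries, at 316.3, 371.7 and 337.2 CPM, were above all 3 FOXL2WT libraries, the highest of which had 313.9 CPM. The difference was 0.18 (95% interval 0.06 to 0.29, edgeR adjusted p = 0.0520), and without FOXL2C134W library A it was 0.24 (adjusted p = 0.00862). DESeq2 called FBN1 higher (0.18, adjusted p = 0.0184). LOXL2 differed by 0.08 (interval 0.0034 to 0.15, adjusted p = 0.175), LOX by -0.02 (interval -0.11 to 0.06), THBS2 by 0.14 (interval -0.31 to 0.59) and POSTN by 0.07 (interval -0.68 to 0.82). LOXL2 was called higher under DESeq2 with transcript length offsets (0.14, adjusted p = 0.0160).

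Fold changes in FOXL2C134W against FOXL2WT rose with the length of a gene's transcripts, and several members are long. Across 13865 genes Spearman's rho between the log2 fold change and transcript length was 0.36 in this comparison and -0.15 in FOXL2WT against Vectors, over genes that share the same libraries. The 1277 genes of at least 5000 bases had a median log2 fold change of 0.14. Transcript lengths were 7969 bases for FBN1, 6133 for FN1, 5118 for TNC and 4448 for THBS1, against 1073 for SPARC and a median of 2110 over all genes tested. Set against genes of like length in FOXL2C134W against FOXL2WT, FN1 and THBS1 lay above the upper quartile of their length decile (0.28 and 0.18), TNC and FBN1 lay between the quartiles of theirs, and SPARC lay between its quartiles (-0.17 and 0.02). In FOXL2WT against Vectors, FN1, TNC and FBN1 lay below the lower quartile of their decile (-0.17).

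With the length trend removed within each library, FN1, TNC and THBS1 were still called higher in FOXL2C134W than in FOXL2WT, at smaller sizes of 0.16 (edgeR adjusted p = 0.00118), 0.16 (adjusted p = 0.00412) and 0.16 (adjusted p = 0.00830). SPARC was no longer called (-0.05, adjusted p = 0.271), and FBN1 was at -0.01 (adjusted p = 0.893). DESeq2 with transcript length offsets gave TNC 0.13 (adjusted p = 0.504). What moved long and short transcripts apart between these libraries was not tested.

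**Figure D3:**
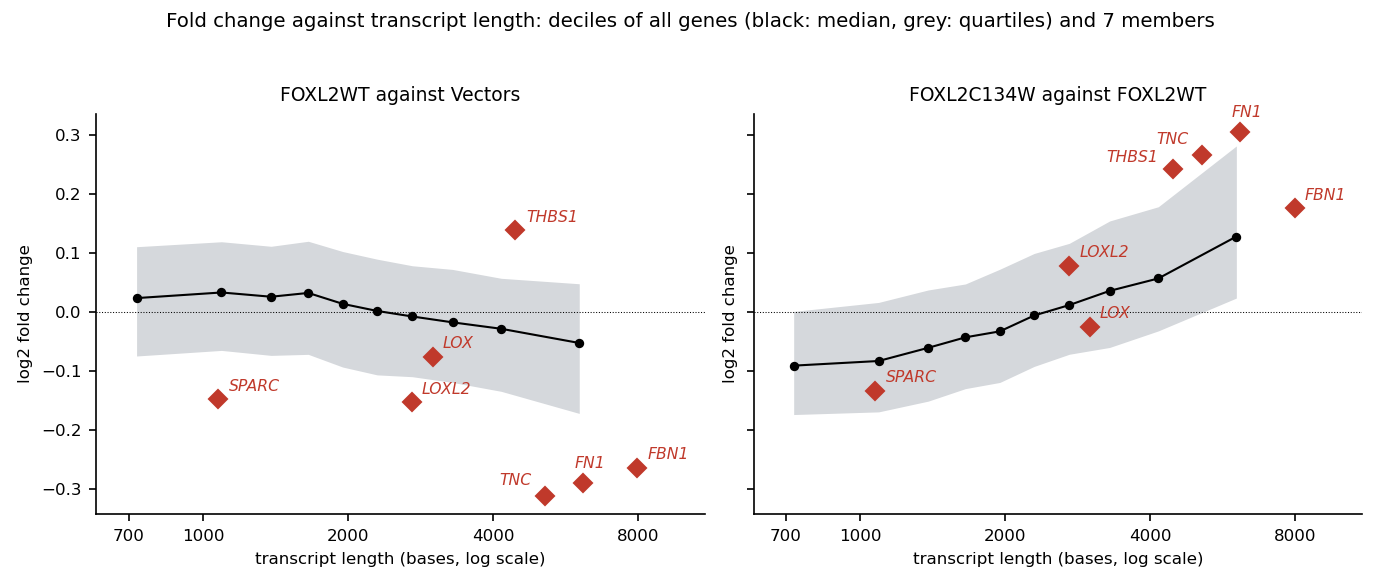
Log2 fold change (y axis) against TPM-weighted mean transcript length in bases (x axis, log scale) in FOXL2WT against Vectors and in FOXL2C134W against FOXL2WT, with the median and quartiles of all genes in 10 bins of length and 7 members as diamonds. In the right panel the medians climb with length from -0.09 to 0.13, and FN1 and THBS1 stand above the band of quartiles.

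Fibronectin is also regulated by splicing, through the extra domain exons A (EDA) and B (EDB), which plasma fibronectin lacks and cellular fibronectin includes. Both exons are shown here because the shares that follow count transcripts with and without them. They were read from the GRCh38 genome on the minus strand, 5′ to 3′, with capitals for the exon and lower case for the 12 intron bases on either side. The EDA window is chr2:215380799-215381092, in which the exon covers 270 bases, and the EDB window is chr2:215392919-215393215, in which the exon covers 273 bases.
FN1 EDA: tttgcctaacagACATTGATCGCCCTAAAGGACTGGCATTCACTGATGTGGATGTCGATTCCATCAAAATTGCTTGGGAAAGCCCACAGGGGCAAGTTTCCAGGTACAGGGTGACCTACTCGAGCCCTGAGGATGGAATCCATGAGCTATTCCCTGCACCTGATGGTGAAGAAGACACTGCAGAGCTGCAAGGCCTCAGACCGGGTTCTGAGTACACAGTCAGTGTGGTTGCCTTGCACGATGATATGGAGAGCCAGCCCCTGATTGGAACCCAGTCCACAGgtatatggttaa
FN1 EDB: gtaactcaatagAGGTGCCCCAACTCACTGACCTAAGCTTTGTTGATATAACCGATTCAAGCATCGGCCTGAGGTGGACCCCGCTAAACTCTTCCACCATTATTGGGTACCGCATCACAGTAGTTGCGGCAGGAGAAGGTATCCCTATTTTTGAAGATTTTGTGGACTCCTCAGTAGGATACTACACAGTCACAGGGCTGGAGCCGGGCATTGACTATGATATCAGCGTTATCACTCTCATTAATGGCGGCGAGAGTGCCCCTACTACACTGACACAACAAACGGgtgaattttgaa
In both, the intron ended in ag before the exon and began with gt after it. Of the protein-coding transcripts of FN1 that reach these positions, 5 contained EDA and 6 skipped it, while 3 contained EDB and 7 skipped it.

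For each exon, the share is the TPM of protein-coding FN1 transcripts that contain it over the TPM of those that contain or skip it. It is thus not a share of all FN1 TPM. Not all coding transcripts reach both positions, so the shares of the 2 exons have unlike denominators. Those counted as skipping EDA include FN1-213, a coding transcript of only 3720 bases at a mean of 77.75 TPM. The EDA share would be higher without it. The EDA share was 43.1% ± 0.37 (SD, n = 3) in Vectors, 43.6% ± 0.81 in FOXL2WT and 42.6% ± 1.81 in FOXL2C134W. With FOXO1 it was 43.7% ± 1.95 in the FOXL2WT cells and 43.0% ± 0.24 in the FOXL2C134W cells. All 15 libraries lay between 40.8% and 45.1%, and the ranges of all 5 conditions overlapped. The EDB share was 15.8% ± 0.31 in Vectors, 16.1% ± 0.79 in FOXL2WT and 16.0% ± 1.13 in FOXL2C134W. With FOXO1 the EDB share was 15.1% ± 1.06 in the FOXL2WT cells and 16.8% ± 0.68 in the FOXL2C134W cells. The widest gap, 1.79 percentage points between the FOXO1 conditions, came from groups that overlapped. A two-sided exact permutation test on 3 against 3 libraries, whose smallest p is 0.1, gave p between 0.3 and 1 for EDA and between 0.2 and 0.9 for EDB over 7 comparisons (lowest adjusted p 0.817 and 0.525). These shares rest on how salmon divided 75-base reads between transcripts that share most of their sequence, an error the SD covers only in part. The most abundant coding transcript contained EDA and skipped EDB, at a mean of 136.2 TPM.

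**Figure D4:**
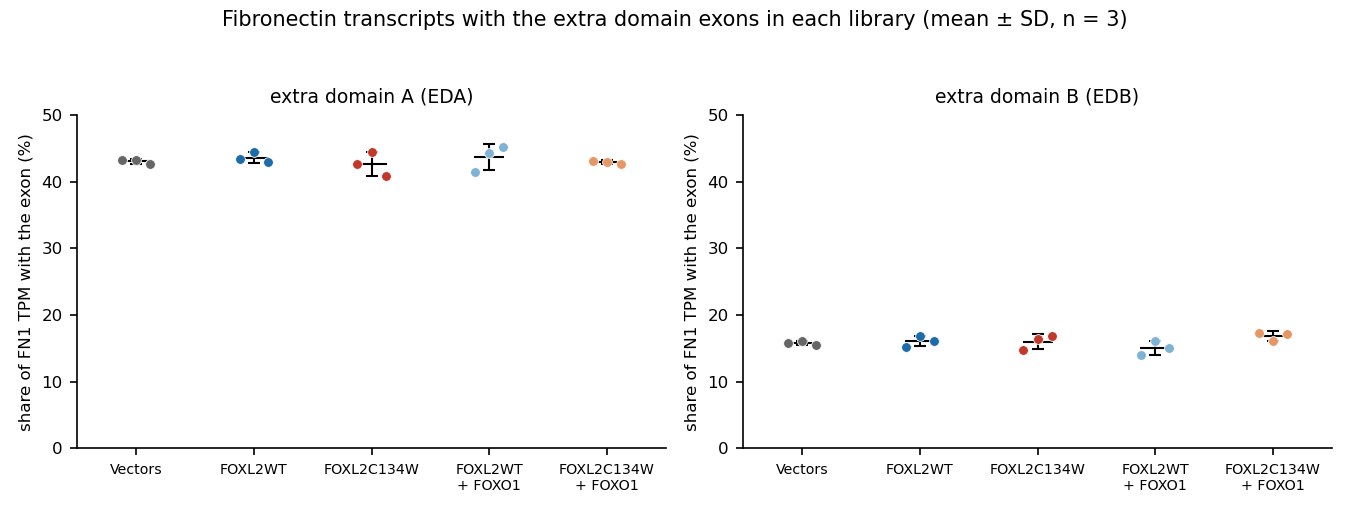
TPM of protein-coding FN1 transcripts that contain the EDA or the EDB exon, as a share of the TPM of those that contain or skip that exon (y axis, percent, starting at 0), in each library of the 5 conditions (x axis), with the mean ± SD (n = 3). EDA lies between 40.8% and 45.1% and EDB between 14.0% and 17.3% in every library.

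The FOXO1 libraries ask whether active FOXO1 changes the effect of either form of FOXL2. FOXO1 RNA averaged 117.2 CPM in FOXL2WT + FOXO1 and 43.2 CPM in FOXL2C134W + FOXO1, against 11.99 to 13.15 CPM in the other conditions. Adding FOXO1 also went with lower SMAD3 RNA, by 1.51 on the log2 scale in FOXL2WT cells and by 1.11 in FOXL2C134W cells. FOXL2 RNA differed by -0.55 in FOXL2WT cells (edgeR adjusted p = 0.0310) and by 0.05 in FOXL2C134W cells (adjusted p = 0.921). The difference in FOXL2WT cells was called in 0 of 6 fits with a library left out and in 10 of 10 other fits. Its size stayed between -0.58 and -0.53 in all of them. The part of the FOXO1, SMAD3 and FOXL2 levels in the results below was not tested. By edgeR, 0 of the 9 members were called for FOXO1 in FOXL2WT cells, where 0.0505% of all genes were called and 1266 genes had an unadjusted p under 0.05. The count was also 0 in FOXL2C134W cells, where 0.714% of genes were called and 1557 had an unadjusted p under 0.05. DESeq2 called 0 members in both as well.

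FN1 had 1879, 2113 and 1975 CPM in FOXL2WT + FOXO1, all above the 3 FOXL2WT libraries, a difference of 0.17 (95% interval 0.06 to 0.28, edgeR adjusted p = 0.332). It had 1893, 2038 and 2073 CPM in FOXL2C134W + FOXO1, which overlapped FOXL2C134W, a difference of -0.13 (interval -0.24 to -0.02, adjusted p = 0.336). Without FOXL2C134W library A, the lowest of the 3 for FN1, the second difference was -0.19 (adjusted p = 0.0418). The difference between the FOXO1 effects in the mutant and wild-type cells was -0.30 for FN1 (SE 0.07, edgeR adjusted p = 0.0532), just outside the threshold. It passed the threshold in DESeq2 (-0.30, adjusted p = 0.00686), and also without FOXL2C134W library A (-0.36, adjusted p = 0.00410), without FOXL2WT + FOXO1 library A (-0.34, adjusted p = 0.0265) or without FOXL2C134W + FOXO1 library B (-0.32, adjusted p = 0.0486). This difference for FN1 was called in only 3 of 12 fits with a library left out, and in 6 of 10 other alternative fits.

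TNC showed the same order of values. It had 244.4, 255.8 and 253.7 CPM in FOXL2WT + FOXO1, above the FOXL2WT libraries (0.11, interval 0.02 to 0.20, edgeR adjusted p = 0.459). It had 249.8, 259.5 and 264.2 CPM in FOXL2C134W + FOXO1, below the FOXL2C134W libraries (-0.12, interval -0.21 to -0.03, adjusted p = 0.231). The 2 FOXO1 effects differed by -0.23 (SE 0.06, adjusted p = 0.0584). That value passed the threshold in DESeq2 (-0.24, adjusted p = 0.00918), without FOXL2C134W library A (-0.27, adjusted p = 0.0172) and without FOXL2WT + FOXO1 library A (-0.26, adjusted p = 0.0456). It was called in only 2 of 12 fits with a library left out, and in 3 of 10 other alternative fits.

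For THBS1 the difference between the FOXO1 effects was -0.12 (interval -0.23 to -0.0049, edgeR adjusted p = 0.374), and for SPARC it was 0.08 (interval -0.01 to 0.18, adjusted p = 0.445). Over all genes 1.38% were called in this test of the difference and 1736 had an unadjusted p under 0.05, while of the members 0 were called by edgeR and 2, FN1 and TNC, by DESeq2. SPARC in FOXL2C134W + FOXO1 had 2004, 1964 and 1947 CPM, all above the FOXL2C134W libraries, a difference of 0.08 (interval 0.02 to 0.15, adjusted p = 0.268).

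When both cells carried FOXO1, 0 of the 9 members were called between FOXL2C134W and FOXL2WT by edgeR, where 0.144% of all genes were called and 1878 had an unadjusted p under 0.05. DESeq2 also called 0 members. FN1 differed by 0.01 (interval -0.10 to 0.12), TNC by 0.04 (interval -0.05 to 0.12) and THBS1 by 0.12 (interval 0.04 to 0.20, edgeR adjusted p = 0.214). The intervals of FN1 and TNC did not reach the values of 0.30 and 0.27 seen for the same genes without FOXO1. The formal test of that change is the difference between the FOXO1 effects given above.

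Against FOXL2WT without FOXO1, FOXL2C134W + FOXO1 called 1 member of 9, where 1.69% of all genes were called. THBS1 had 2872, 2810 and 2888 CPM, above the FOXL2WT libraries, and rose by 0.19 (SE 0.04, edgeR adjusted p = 0.0197). The call was lost without FOXL2WT library B (0.18, adjusted p = 0.116), FOXL2WT library C (0.18, adjusted p = 0.0656), FOXL2C134W + FOXO1 library A (0.19, adjusted p = 0.0529) or FOXL2C134W + FOXO1 library C (0.19, adjusted p = 0.0779). FBN1 differed by 0.19 (adjusted p = 0.0838), FN1 by 0.18 (adjusted p = 0.0852) and TNC by 0.15 (adjusted p = 0.0741). DESeq2 called these 3 higher as well, with adjusted p of 0.0226, 0.0241 and 0.0185.

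**Figure D5:**
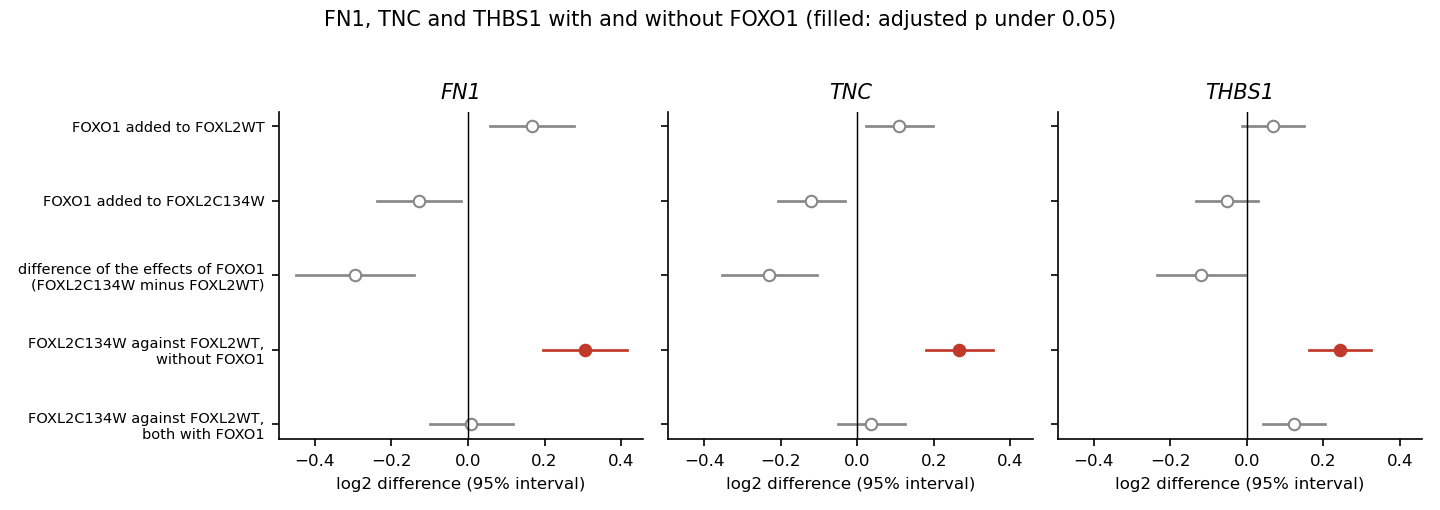
Log2 differences of FN1, TNC and THBS1 (x axis, with 95% interval) in the comparisons with and without FOXO1 and for the difference between the FOXO1 effects, with filled points for an adjusted p under 0.05. For FN1 and TNC the difference between FOXL2C134W and FOXL2WT lies near 0.3 without FOXO1 and near 0 with it.

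The levels of several members moved together over the 15 libraries, which are described here without a test because the libraries share 5 conditions. Pearson's r of log2 CPM was 0.92 between FN1 and TNC and 0.83 between FN1 and FBN1, and after the condition means were removed it was 0.78 and 0.75. SPARC and THBS1 had r = -0.89, which dropped to 0.13 within conditions, so their opposite course lay between conditions. SPARC and FN1 showed the reverse, with r = -0.08 over all libraries and -0.77 within conditions, as did SPARC and TNC with 0.11 and -0.75. No trend with transcript length was removed from these levels, and its part in the correlations was not tested. The genes most like FN1 over the 15 libraries were MYO10 (r = 0.946), PLXNA2 (0.942) and LRP1 (0.937). Those most like TNC were PODXL (0.943), ECE1 (0.935) and COL4A1 (0.929), a chain of basement membrane collagen. For THBS1 they were MICAL2 (0.962), AKAP1 (0.954) and ACTN1 (0.953), and for SPARC COQ10B (0.970), PRSS23 (0.961) and CA3 (0.956). FBN1 was most like LAMC1 (0.925), a laminin chain.

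Around the fibrillins, 14 of 18 other microfibril and elastic fiber genes passed the filter. In FOXL2WT against Vectors 3 of the 14 were lower, where 3.61% of all genes were lower, and 0 higher, with LTBP2 at -0.25 (edgeR adjusted p = 0.00963), FBLN2 at -0.24 (adjusted p = 0.00538) and LTBP3 at -0.33 (adjusted p = 0.0337). LTBP2 and LTBP3 belong to the family of proteins that bind latent TGF-beta, and FBLN2 encodes fibulin-2, which binds fibronectin and fibrillin. In FOXL2C134W against Vectors 3 were lower, beside 7.24% of all genes, namely FBLN2 (-0.23), MFAP2 (-0.33) and FBLN1 (-0.14), and 0 higher. Between the forms of FOXL2 3 of the 14 were called, beside 11.2% of all genes. LTBP2 (0.35, adjusted p = 0.000367) and LTBP4 (0.29, adjusted p = 0.0128) were higher in FOXL2C134W and MFAP2 was lower (-0.32, adjusted p = 0.0470). Several of these calls needed most libraries. Of the 6 fits that each left out a library, LTBP2 and LTBP3 were called in 4 and 2 in FOXL2WT against Vectors, MFAP2 and FBLN1 in 3 and 1 in FOXL2C134W against Vectors, and LTBP4 and MFAP2 in 4 and 2 between the forms of FOXL2. Of the 10 other fits, FBLN1 was called in 5 and MFAP2, between the forms of FOXL2, in 4. LTBP2 had the same signs as FN1, TNC and FBN1 in the comparisons with FOXL2WT, with mean levels of 116.9 CPM in Vectors, 98.3 in FOXL2WT and 125.8 in FOXL2C134W.

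Of 19 other matricellular genes, 11 passed the filter, and 3 of the 11 were called in each FOXL2 condition against Vectors, where 6.07% and 14.7% of all genes were called. CCN1 and CCN2, which encode secreted proteins that bind integrins and are known targets of YAP and TGF-beta, rose in both FOXL2 conditions against Vectors. CCN2 averaged 927.0 CPM ± 56.2 (SD, n = 3) in Vectors, 1284 ± 68.0 in FOXL2WT and 1220 ± 68.8 in FOXL2C134W, 0.47 and 0.40 above Vectors on the log2 scale, with edgeR adjusted p of 1.84e-05 and 3.52e-05. CCN1 rose by 0.41 and 0.36. In each of these comparisons 1 gene of the list fell, TNXB in FOXL2WT (-0.48, adjusted p = 0.00406) and SPP1 in FOXL2C134W, the latter with under 1.5 CPM in every library. Between the forms of FOXL2 1 of the 11 was called, a share near the 11.2% of all genes. It was TNXB, a tenascin of connective tissue, which was higher in FOXL2C134W (0.51, adjusted p = 0.00145).

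All 10 other genes of collagen cross-linking and fiber processing passed the filter, and 0 were called against Vectors in either FOXL2 condition by edgeR, beside 6.07% and 14.7% of all genes. FURIN, a protease that cuts proproteins, was the 1 gene of 10 called between the forms of FOXL2 (0.20, adjusted p = 0.0163), a share near the 11.2% of all genes, and it was called in 3 of the 6 fits that left out a library. Of 9 receptors for these matrix proteins 7 passed the filter. In FOXL2WT against Vectors 4 of the 7 were lower, beside 3.61% of all genes, and 0 higher. They were ITGA5 (-0.21), ITGB1 (-0.16), SDC4 (-0.23) and CD47 (-0.20). ITGA5 and ITGB1 encode the integrin that assembles fibronectin, SDC4 its syndecan co-receptor and CD47 a receptor of thrombospondin-1. In FOXL2C134W against Vectors 5 were lower, beside 7.24% of all genes, and 0 higher, with SDC4 at -0.43 (edgeR adjusted p = 7.23e-06), CD47 at -0.39 (adjusted p = 8.07e-06) and ITGA5 at -0.22 (adjusted p = 0.000186). SDC4 and CD47 were also lower in FOXL2C134W than in FOXL2WT (-0.19 each, adjusted p = 0.0103 and 0.00741), where 4.12% of all genes were lower. With a library left out, ITGA5 and the calls of SDC4 and CD47 in FOXL2C134W against Vectors held in 6 of 6 fits, as did SDC4 in FOXL2WT against Vectors and CD47 between the forms of FOXL2. CD47 in FOXL2WT held in 5, ITGB1 against Vectors and SDC4 between the forms in 4, and ITGAV in FOXL2C134W in 2.

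Markers of other cell types were read beside these results. DCN, LUM and CYP17A1 of the 6 fibroblast and theca markers had at most 7 counts in every library, while COL1A1 was abundant. COL1A1 fell by 0.42 in FOXL2WT against Vectors and was 0.23 higher in FOXL2C134W than in FOXL2WT, the same signs as FN1. In FOXL2C134W against Vectors COL1A1 was still lower (-0.20, edgeR adjusted p = 0.0160), where FN1 differed by 0.02 and was not called. The summed level of that list was 1517 to 1585 CPM in Vectors, 1064 to 1206 in FOXL2WT and 1342 to 1347 in FOXL2C134W. The epithelial list, led by KRT7, was at 1161 to 1367 CPM in Vectors, 1699 to 1846 in FOXL2WT and 1502 to 1984 in FOXL2C134W, where KRT7 rose by 0.45 and 0.41 against Vectors. PTPRC and CD3E had at most 7 counts, and CD68 made nearly all of the summed leukocyte list. That sum was 103.4 to 116.6 CPM in Vectors and 88.8 to 97.8 CPM in the other 4 conditions. CD68 fell by 0.22 in FOXL2WT against Vectors (edgeR adjusted p = 0.0144, called in 3 of 6 fits with a library left out) and by 0.25 in FOXL2C134W against Vectors (adjusted p = 0.00245). The 3 endothelial markers summed to between 3.76 and 7.15 CPM. The part of these lists in the results was not tested.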

How the data were processed

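The authors sequenced mRNA from 15 libraries as stranded single-end 75-base reads and quantified it against hg38 with salmon 1.1.0. They deposited gene-level estimated counts, summed from transcripts, and per library the estimated reads and TPM of each transcript. The release of the annotation is not given in the sources used here. Groups came from the sample labels, 3 libraries in each of 5 conditions.

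The estimated counts were rounded, genes with low counts were removed with filterByExpr (13868 of 37787 genes remained), and libraries were scaled by TMM. All 15 were fitted together with 1 term per condition in edgeR 4.0.16 (quasi-likelihood test, R 4.3.3). The fit was also run on simulated counts. These held no trend with gene length, so that run does not cover the length trend described above. Library totals of 14962245 to 25339094 counts leave counting error small beside replicate spread, except for THBS2, POSTN and FBN2. No pair of replicates agreed within counting noise, the chi-square of each pair being 2.21 to 8.84 times its degrees of freedom. FN1 exon shares were computed from TPM with scipy 1.17.1 and GENCODE coordinates. Positions are GRCh38, and the promoter of LOXL2 and protein sequences are not used here.

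Alternatives were DESeq2 1.42.0, alone and with offsets from transcript lengths, the size factors of DESeq2, no filter, at least 10 counts in every library, the groups compared only, a replicate block, offsets that remove a trend with gene length or GC content (span 0.3), and each library left out. Named genes were the 10 members, the transfected genes, and called genes of the partner and marker lists. The members, lists and tests were chosen with earlier results of these data known.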

Additional observations from a re-analysis of the deposited data

Results flagged for a closer look

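The effect of FOXO1 differed between FOXL2C134W and FOXL2WT cells by the edgeR test of that difference for 2 genes of the partner lists, LTBP2 (-0.32 on the log2 scale, adjusted p = 0.0463) and TNXB (-0.68, adjusted p = 0.0137). The mean of LTBP2 went from 98.3 to 107.2 CPM with FOXO1 in FOXL2WT cells and from 125.8 to 109.9 CPM in FOXL2C134W cells, and that of TNXB from 24.5 to 32.0 and from 34.9 to 28.5 CPM. With each of 12 libraries left out in turn, LTBP2 was called in 3 fits and TNXB in 9, and of 10 other fits in 4 and 9. COL1A1, from the marker lists, differed by -0.34 (edgeR adjusted p = 0.0291), with means from 1148 to 1253 CPM and from 1342 to 1157 CPM, and was called in 5 of the 12 fits with a library left out.

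The same test gave 0.60 for FOXL2 (edgeR adjusted p = 0.0333, called in 3 of 12 fits with a library left out), 0.41 for SMAD3 (adjusted p = 0.00650) and -1.41 for FOXO1 (adjusted p = 4.72e-05). These are the 3 genes that were transfected, so the levels of the added RNAs also differed between the backgrounds. The sizes depended on the fit. Over the alternative fits SMAD3 ran from 0.052 to 0.45 and FOXO1 from -3.02 to -1.31. SMAD3 was called in 12 of 12 fits with a library left out and in 9 of 10 others.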

How the results depend on the processing

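The counts of members called moved by over 1.5 times as follows. In FOXL2WT against Vectors the count of 6 was 3 under DESeq2 with transcript length offsets. In FOXL2C134W against Vectors the count of 2 was 5 with the gene length offset, also with the replicate block added to it. For FOXO1 in FOXL2WT cells 0 became 1 (FN1) without a filter and with the gene length offset, and in FOXL2C134W cells leaving out a library gave 0 to 1. In FOXL2C134W + FOXO1 against FOXL2WT the count of 1 was 4 by DESeq2 and without a filter, 3 with the groups compared only, 2 with the GC content offset, 0 with the replicate block and gene length offset, and 0 to 1 with a library left out. For the difference between the FOXO1 effects 0 became 2 by DESeq2, without a filter and with at least 10 counts in every library, 1 with the size factors of DESeq2 and with the gene length offset, with or without the replicate block, and 0 to 2 with a library left out. The cause was not tested.

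Signs turned in values that had not been called. With the gene length offset, alone and with the replicate block, FN1 went to -0.074 and -0.074 in FOXL2C134W against Vectors, FBN1 to -0.011 and -0.012 in FOXL2C134W against FOXL2WT, and between the FOXO1 conditions FN1 to -0.051 and -0.051 and TNC to -0.012 and -0.011. Under DESeq2 with transcript length offsets THBS2 went to 0.29 in FOXL2C134W against Vectors, LOX to 0.0059 in FOXL2C134W against FOXL2WT, and TNC to -0.049 between the FOXO1 conditions. LTBP3, which had been called in FOXL2WT against Vectors, went to 0.057 in that fit. With a library left out, POSTN ran from -0.15 to 0.35 in FOXL2WT against Vectors and from -0.15 to 0.35 in FOXL2C134W against FOXL2WT. FN1 ran from -0.026 to 0.080 in FOXL2C134W against Vectors and from -0.032 to 0.055 between the FOXO1 conditions.

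Differences in FN1 exon shares, in percentage points, also changed sign with 1 library left out. EDA ran from -1.37 to 0.44 in FOXL2C134W against Vectors, from -0.72 to 1.14 for FOXO1 in FOXL2WT cells (-0.57 on estimated reads), from -0.58 to 1.23 for FOXO1 in FOXL2C134W cells, and from -1.81 to 0.047 between the FOXO1 conditions. EDB ran from -0.11 to 0.68 in FOXL2WT against Vectors, from -0.28 to 0.79 in FOXL2C134W against Vectors, and from -0.55 to 0.52 in FOXL2C134W against FOXL2WT.

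The library letters gave no sign of pairing the samples, although correlations of this kind cannot exclude a pairing. Deviations of same-letter libraries correlated between -0.16 and 0.17, with 2 of 30 pairs over 0.1. Those of libraries with different letters correlated between -0.12 and 0.12, with 4 of 60 pairs over 0.1. With the letter as a replicate block 5, 2 and 5 members were called in the 3 comparisons without FOXO1, THBS1 losing its call in FOXL2WT against Vectors (0.14, edgeR adjusted p = 0.0505) and FBN1 gaining one in FOXL2C134W against FOXL2WT (0.17, adjusted p = 0.0277). It called 1 in FOXL2C134W + FOXO1 against FOXL2WT and 0 in the other 4.

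The called changes of members were under 1.5-fold, several adjusted p lay near 0.05, and 3 libraries per condition limit the precision. POSTN, which was not called, differed by -0.75 on the log2 scale between the FOXO1 conditions (edgeR adjusted p = 0.354). Its difference between the FOXO1 effects was -0.83 (adjusted p = 0.537). Depth limits THBS2 and POSTN.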
